A study of Mus musculus with 10 samples.

Results

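Macrophage marker genes were followed here in mouse hearts. The 10 genes were Csf1r, Cd163, Mrc1, Lyz2, Cd68, Cd14, C1qa, C1qb, Lyve1 and Ccr2, taken by symbol, and every probe set annotated to exactly 1 of these symbols was used. That gave 18 probe sets of 10 genes, out of 45037 probe sets tested and 18193 genes with a probe set of their own. Csf1r and C1qb had 3 probe sets each, Lyve1 2, Ccr2 4 and each of the other 6 genes 1. Where 1 value per gene is given, it comes from the brightest probe set, the one with the highest average of the 10 arrays.

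All animals were male SV129 littermates, 32 weeks old, and their hearts were sampled after 14 days of subcutaneous infusion from osmotic minipumps. The KO AngII group (2 arrays) lacked protein kinase C zeta (PKCz -/-) and received angiotensin II at 432 µg per kg per day. The KO PBS group (3 arrays) had the same genotype and received PBS, the solvent. The WT AngII group (3 arrays) was wild type and received the same dose of angiotensin II, and the WT PBS group (2 arrays) was wild type and received PBS. The source label of both PBS groups calls them non-treated, whereas titles and design name PBS. The labels do not say how the PKCz -/- allele was made, nor that each array is a separate animal, so p-values reflect no more than how these arrays vary. An array's number is the one in its title.

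Values are log2 expression after RMA, which equalises the distributions of the arrays, so a difference of 1 is a 2-fold change. Prkcz, the targeted gene, read 5.70 to 5.87 on the 5 KO arrays and 6.23 to 6.45 on the 5 WT arrays. The 9 cardiomyocyte genes examined averaged between 12.78 and 14.58 over the arrays. The brightest probe set of each of the 10 macrophage markers averaged above 6.19, the median over all probe sets. Array medians ran from 6.126 to 6.236. On KO AngII 3, KO AngII 4 and KO PBS 4 the 24 spike-in probe sets averaged between 6.896 and 7.076, against 12.86 to 13.33 on the other 7 arrays, so the difference between KO AngII and WT AngII cannot be told apart from this split. The actin probe sets, whose 3′ minus 5′ signal reads RNA integrity, differed by 0.736 and 0.828 in KO AngII, 0.749 to 1.38 in KO PBS, 0.924 to 1.33 in WT AngII and 1.17 to 1.7 in WT PBS. The 18S rRNA probe sets averaged 7.28 and 7.49 in KO AngII, 7.48 to 8.07 in KO PBS, 6.65 to 7.7 in WT AngII and 8.18 to 9.39 in WT PBS. The actin measure did not overlap between KO AngII and WT AngII. The 18S measure did not overlap between AngII and PBS in WT hearts, nor between KO and WT hearts under PBS. The part of either in the results was not tested. WT AngII 2 stood apart from the rest: it gave the highest reading of all 10 arrays for 16.8% of all probe sets and the lowest for 23.1%, against 5.8% to 12.8% highest on any other array. Each comparison is therefore given with and without it.

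Macrophages are phagocytes of the tissue, and in the adult heart they come from more than one source. Resident macrophages, many of them seeded before birth, renew themselves in place and are marked in mouse heart by Lyve1, Cd163, Mrc1, Timd4 and Folr2. Monocytes arriving from the blood carry the chemokine receptor Ccr2, follow its ligand Ccl2, and become macrophages in the injured or overloaded heart. Csf1r, Cd68, Lyz2, Cd14, C1qa and C1qb are found in both kinds.

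The lineage as a whole depends on the transcription factor PU.1, the product of Spi1, whose binding sites hold the core GAGGAA. RefSeq (GRCm38.p6) gave a 300-base promoter window, 250 bases before and 50 after the gene's start, for 6 of the 10 genes. Those of Cd68, C1qb and Lyz2 are shown because these genes read together across the arrays, and that of Cd163 because it did not follow them. The sequence of each is written 5′ to 3′ on the gene's strand, with GAGGAA on either strand in capitals (TTCCTC where it lies on the opposite strand).
Cd68: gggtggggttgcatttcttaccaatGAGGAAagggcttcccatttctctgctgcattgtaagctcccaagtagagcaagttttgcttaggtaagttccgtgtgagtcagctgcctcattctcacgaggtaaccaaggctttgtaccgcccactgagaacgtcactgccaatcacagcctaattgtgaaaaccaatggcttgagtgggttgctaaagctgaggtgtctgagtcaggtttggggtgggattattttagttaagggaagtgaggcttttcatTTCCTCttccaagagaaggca
C1qb: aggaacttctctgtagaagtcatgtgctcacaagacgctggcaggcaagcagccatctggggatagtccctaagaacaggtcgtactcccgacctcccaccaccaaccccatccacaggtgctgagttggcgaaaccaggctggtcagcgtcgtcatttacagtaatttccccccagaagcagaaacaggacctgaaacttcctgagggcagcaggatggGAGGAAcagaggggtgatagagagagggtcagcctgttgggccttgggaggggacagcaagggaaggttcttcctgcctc
Lyz2: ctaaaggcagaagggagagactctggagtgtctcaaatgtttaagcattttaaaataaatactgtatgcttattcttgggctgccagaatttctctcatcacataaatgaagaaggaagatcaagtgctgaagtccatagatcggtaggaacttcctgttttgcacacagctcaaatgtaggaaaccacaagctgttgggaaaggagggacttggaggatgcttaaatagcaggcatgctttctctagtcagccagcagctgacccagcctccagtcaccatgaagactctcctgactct
Cd163: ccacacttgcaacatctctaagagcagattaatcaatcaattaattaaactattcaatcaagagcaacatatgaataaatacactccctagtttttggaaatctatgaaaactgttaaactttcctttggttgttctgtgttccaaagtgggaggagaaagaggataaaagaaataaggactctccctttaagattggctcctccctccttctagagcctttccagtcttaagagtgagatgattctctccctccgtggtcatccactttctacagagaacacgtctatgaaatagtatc

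The Cd68 window lies at chr11:69666121-69666420 on the minus strand, the C1qb window at chr4:136886151-136886450 (minus), the Lyz2 window at chr10:117282223-117282522 (minus) and the Cd163 window at chr6:124304401-124304700 (plus). GAGGAA stood at base 26 as printed and at base 280 on the opposite strand of the Cd68 window, and at base 221 of the C1qb window as printed, counting from 1 at the 5′ end. The Mrc1 window held it 3 times, all on the opposite strand, at bases 71, 84 and 216. These letters are in none of the Lyz2, Cd163 and Ccr2 windows. Of all 32851 mouse promoter windows of this length, 28.3% hold GAGGAA on either strand and 4.82% hold it more than once. A match is a run of letters and was not tested as a binding site, and a window without it may hold other forms.

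The 10 markers did not read as 1 block in these hearts. On WT AngII 2 the 6 genes shared by resident and recruited macrophages all had their highest reading of the 10 arrays, by 1.24 to 1.66 above the mean of the other 9. On the same array Lyve1, a marker of resident macrophages, had its lowest reading, 1.26 below that mean, and Cd163 lay inside the range of the others. Counted by probe set, WT AngII 2 was the highest array for 13 of 18 (72.2%), against 16.8% of all probe sets, and lay more than 1 above the other 9 for 10 of 18 (55.6%), against 2.26%. Both probe sets on which it was the lowest array (11.1%, against 23.1% of all) were those of Lyve1. One array has no spread of its own, so no test was made of it. In whole-heart RNA, fewer cells of a type and less RNA per cell cannot be told apart.

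**Figure D1:**
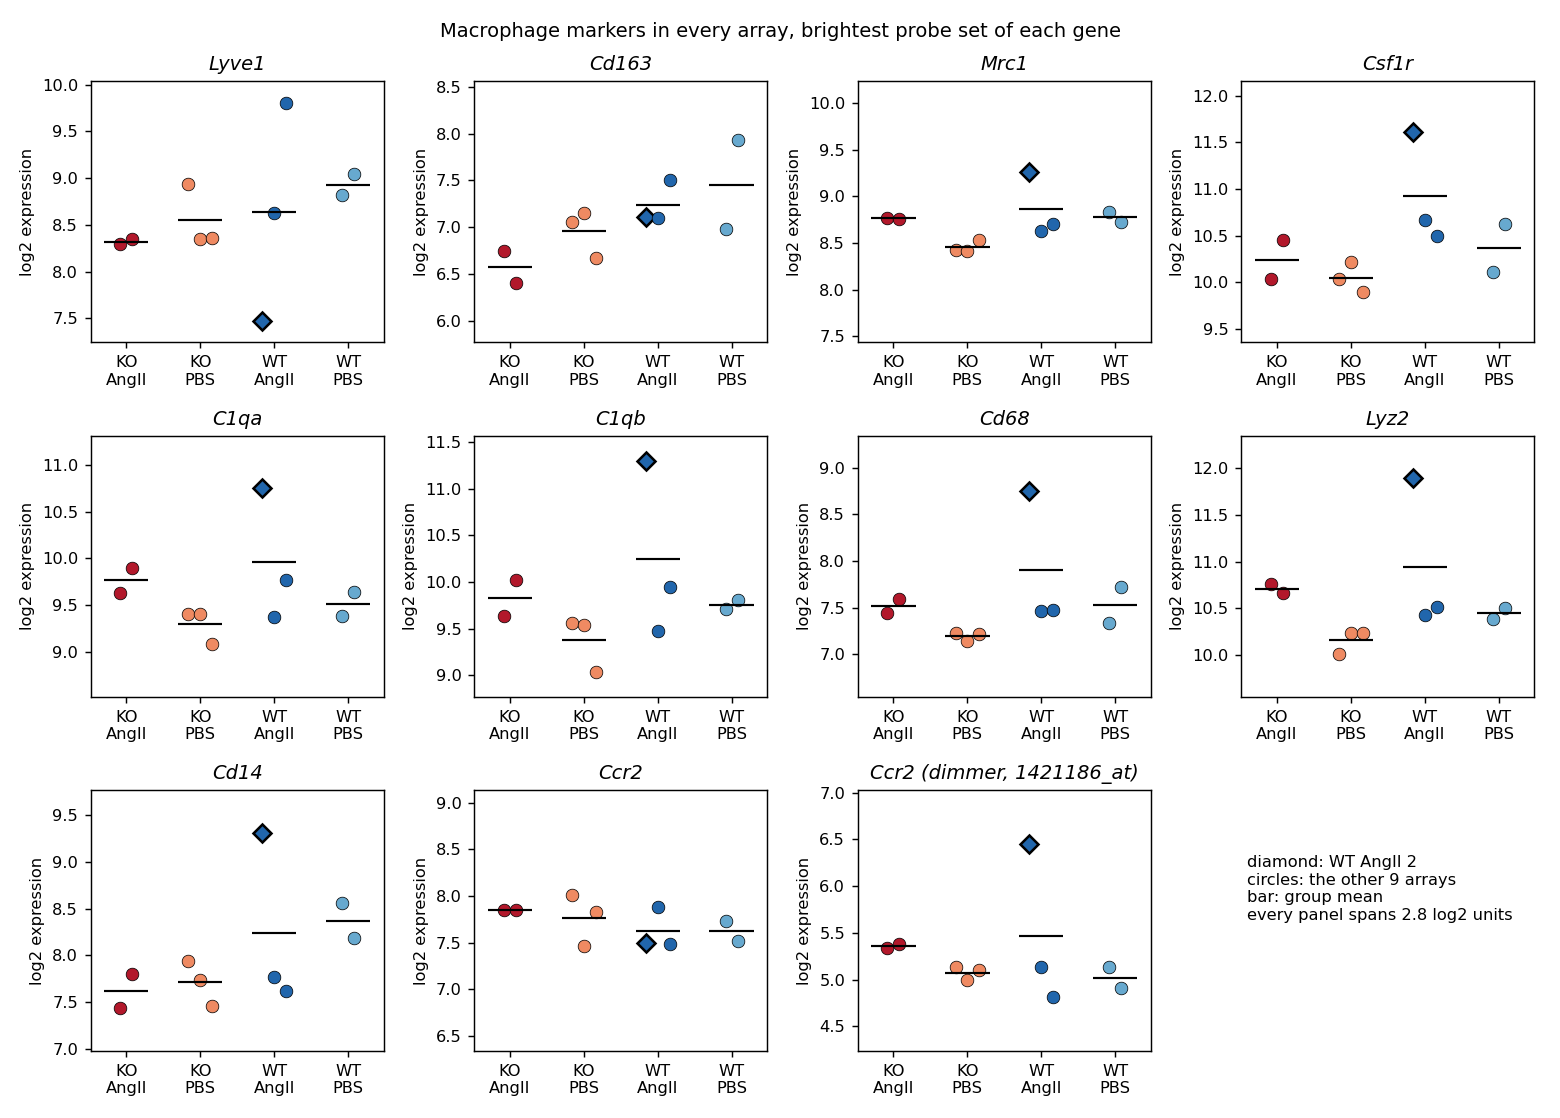
Log2 expression (y axis) of the brightest probe set of each macrophage marker, and of a dimmer Ccr2 probe set, in the KO AngII, KO PBS, WT AngII and WT PBS groups (x axis). Each point is an array, the diamond is WT AngII 2, and bars are group means. The diamond is the highest point for Csf1r, C1qa, C1qb, Cd68, Lyz2, Cd14 and Mrc1, the lowest for Lyve1, and lies among the others for Cd163 and the brightest Ccr2 probe set.

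Csf1r encodes the receptor for the growth factors Csf1 and Il34, on which macrophages depend for survival. Its brightest probe set (1419872_at) read 10.03 and 10.45 in KO AngII hearts, 10.03, 10.22 and 9.90 in KO PBS, 11.61, 10.67 and 10.49 in WT AngII, and 10.11 and 10.62 in WT PBS. The highest value, 11.61, is that of WT AngII 2 and is 2.51-fold above the mean of the other 9. The other arrays lay within 9.90 to 10.67, and KO AngII values lay wholly below the WT AngII values. The other Csf1r probe sets were also highest on WT AngII 2, by 1.19 (1419873_s_at) and 0.63 (1423593_a_at).

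C1qa and C1qb encode chains of the complement component C1q, which macrophages make in tissue. C1qa read 9.63 and 9.90 in KO AngII hearts, 9.40, 9.40 and 9.08 in KO PBS, 10.75, 9.37 and 9.77 in WT AngII, and 9.38 and 9.64 in WT PBS. C1qb (1417063_at) read 9.64 and 10.02 in KO AngII, 9.56, 9.54 and 9.04 in KO PBS, 11.30, 9.48 and 9.95 in WT AngII, and 9.71 and 9.81 in WT PBS. For both genes the KO AngII hearts lay above all KO PBS hearts, and KO PBS 4 was the lowest array. WT AngII 2 exceeded the mean of the other 9 arrays 2.37-fold for C1qa and 3.16-fold for C1qb. The pair moved closely together, with Pearson's r of 0.98 over 10 arrays and 0.94 over the 9 without WT AngII 2, as a description of arrays that share their normalization.

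Cd68 encodes a lysosomal glycoprotein, Lyz2 the lysozyme of myeloid cells, and Cd14 the co-receptor for bacterial lipopolysaccharide. Cd68 read 7.44 and 7.59 in KO AngII hearts, 7.23, 7.14 and 7.22 in KO PBS, 8.75, 7.47 and 7.48 in WT AngII, and 7.34 and 7.72 in WT PBS. Lyz2 read 10.76 and 10.66 in KO AngII, 10.01, 10.24 and 10.23 in KO PBS, 11.89, 10.43 and 10.51 in WT AngII, and 10.39 and 10.50 in WT PBS. For both, the 3 KO PBS hearts were the lowest 3 of the 10 arrays. Cd14 read 7.43 and 7.80 in KO AngII, 7.94, 7.73 and 7.46 in KO PBS, 9.31, 7.77 and 7.62 in WT AngII, and 8.56 and 8.18 in WT PBS. For Cd14 only WT AngII 2 lay above the 2 WT PBS hearts. WT AngII 2 exceeded the other 9 by 2.55-fold for Cd68, 2.78-fold for Lyz2 and 2.79-fold for Cd14.

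Of the resident markers, Lyve1 and Cd163 were not at their highest on WT AngII 2, whereas Mrc1 was. Lyve1 encodes a hyaluronan receptor that is also found on lymphatic endothelium. Its brighter probe set (1429379_at) read 8.29 and 8.35 in KO AngII hearts, 8.94, 8.35 and 8.36 in KO PBS, 7.47, 8.63 and 9.81 in WT AngII, and 8.82 and 9.04 in WT PBS. Its other probe set (1453128_at) read 7.89 and 8.18 in KO AngII, 8.36, 7.98 and 7.93 in KO PBS, 6.99, 8.29 and 8.71 in WT AngII, and 7.83 and 8.57 in WT PBS. On both, the WT AngII group held the lowest array, WT AngII 2, and the highest, WT AngII 4. WT AngII 2 was 2.4-fold and 2.31-fold below the mean of the other 9 arrays.

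Lymphatic genes were examined beside Lyve1, since it belongs to both cell types. On WT AngII 2 the 5 measured lymphatic endothelium genes had a median of 0.31 above the other 9 arrays. Flt4 (0.57) and Pdpn (0.86) were at their highest there, and Prox1, a transcription factor of lymphatic endothelium, differed by -0.01. Their mean deviation was 0.35 on WT AngII 2 and -0.22 to 0.13 on the others. Whether these genes read lymphatic cells alone in whole-heart RNA was not tested.

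Cd163 encodes the scavenger receptor for haptoglobin-haemoglobin complexes. It read 6.75 and 6.40 in KO AngII hearts, 7.05, 7.15 and 6.67 in KO PBS, 7.11, 7.10 and 7.50 in WT AngII, and 6.98 and 7.93 in WT PBS. Both KO AngII hearts lay below all 3 WT AngII hearts, and the 2 WT PBS hearts lay on either side of the 3 WT AngII hearts. Mrc1 encodes the mannose receptor. It read 8.77 and 8.76 in KO AngII, 8.43, 8.41 and 8.53 in KO PBS, 9.26, 8.63 and 8.70 in WT AngII, and 8.83 and 8.73 in WT PBS. Mrc1 was highest on WT AngII 2 (1.53-fold) and lowest in the 3 KO PBS hearts. Its r with Lyz2 was 0.93 over 10 arrays and 0.80 over the 9 without WT AngII 2, and with Cd14 0.77 and 0.34. With Csf1r (1419872_at) it was 0.77 and 0.30, and with Lyve1 (1429379_at) -0.46 and 0.14, so the negative value with Lyve1 rested on WT AngII 2. Lyve1 and Cd163 had r of 0.49 over 10 arrays and 0.69 over 9.

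Ccr2, the recruited marker, was read differently by its 4 probe sets. The brightest (1460067_at) read 7.85 and 7.85 in KO AngII hearts, 8.01, 7.46 and 7.83 in KO PBS, 7.50, 7.88 and 7.48 in WT AngII, and 7.73 and 7.52 in WT PBS. The probe set 1421186_at read 5.34 and 5.38 in KO AngII, 5.13, 4.99 and 5.10 in KO PBS, 6.45, 5.13 and 4.81 in WT AngII, and 5.13 and 4.91 in WT PBS. On the first, WT AngII 2 lay 0.24 below the other 9 arrays, and on the second 1.35 above them, a 2.54-fold difference. The remaining probe sets lay between 4.14 and 4.73 (1421187_at) and between 4.36 and 4.99 (1421188_at), with WT AngII 2 at 0.37 and 0.15 above the other 9. The 3 dimmer probe sets all averaged below the median probe set of the arrays (6.19), where small differences are compressed. Across the 10 arrays 1460067_at and 1421186_at had r of -0.08, and over the 9 without WT AngII 2 0.74. Which of them follows Ccr2 transcripts was not tested, and Ccr2 given without a probe set number is the brightest.

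Set against the mean of all arrays, the balance of Lyve1 and the shared genes differed most on WT AngII 2 and WT AngII 4. Lyve1 minus the mean of the 6 shared genes, each first centred on its own mean, was -2.42 on WT AngII 2 and 1.22 on WT AngII 4, and -0.34 to 0.63 on the other 8 arrays. Cd163 and Mrc1 did not share the low reading of Lyve1 on WT AngII 2, at 0.05 and 0.61 above the other 9 arrays. The mean deviation of Lyve1, Cd163 and Mrc1 was -0.18 there, against 1.28 for the shared genes, and 0.54 against -0.02 on WT AngII 4. The mean of Lyve1, Cd163 and Mrc1 minus Ccr2 (1460067_at), centred likewise, was 0.03 on WT AngII 2, the smallest departure of the 10 arrays, 0.78 on WT AngII 4 and 0.63 on WT PBS 5. With the mean of the 4 Ccr2 probe sets in its place, WT AngII 2 gave -0.54, the lowest of the 10 arrays, WT AngII 4 0.62 and WT PBS 5 0.60. The AngII minus PBS difference of this resident minus Ccr2 measure in WT hearts was -0.13 with the brightest probe set and -0.04 with it when WT AngII 2 was left out. With the mean of all probe sets of each gene it was -0.27, and 0.03 without WT AngII 2, an alternative chosen after seeing the data, so its sign turned. The 15 pairs among the shared genes had r of 0.69 to 0.98 (median 0.89) over 10 arrays. Without WT AngII 2 they had -0.17 to 0.94 (median 0.55), so the tightness of the shared genes rested largely on that array.

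Other genes of the same cells were examined on WT AngII 2 by lists. Of all probe sets, 16.8% were at their highest on that array and 23.1% at their lowest. Of 20 further genes of macrophages and microglia in general, 19 had their highest reading there, with a median of 1.48 above the other 9 arrays. Ms4a7, a membrane protein of macrophages, read 10.09 on WT AngII 2 and 5.83 to 7.08 elsewhere. Mpeg1, which encodes the pore-forming perforin-2, read 10.42 and 7.38 to 8.28 elsewhere, and Adgre1, which encodes the F4/80 antigen, 9.77 and 7.62 to 8.30. Spi1 itself differed less, at 8.08 on WT AngII 2 and 7.37 to 7.52 on the other 9, and the integrin Itgam was the gene of the list that was not at its highest.

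Antigen presentation genes had the largest median of the macrophage-related lists on that array, at 1.93 for 6 measured genes, 5 of them at their highest. Cd74, the invariant chain of MHC class II, read 10.12 and 10.78 in KO AngII hearts, 9.80, 10.04 and 9.24 in KO PBS, 11.81, 9.49 and 9.77 in WT AngII, and 9.84 and 10.08 in WT PBS. H2-Eb1, a class II beta chain, read 9.38 and 10.09 in KO AngII, 9.04, 9.19 and 8.65 in KO PBS, 11.09, 8.78 and 8.73 in WT AngII, and 9.08 and 9.24 in WT PBS. Both KO AngII hearts lay above all KO PBS hearts for these genes, and KO AngII 4 was the second highest of the 10 arrays after WT AngII 2.

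Further resident genes lay on both sides on WT AngII 2, and most genes listed for monocytes and recruited macrophages lay above the mean of the other arrays. Of 15 other resident cardiac macrophage genes, 5 were at their highest there (Cx3cr1, Gas6, Igfbp4, Stab1 and Clec10a), against 16.8% of all probe sets. Another 5 were at their lowest (Timd4, Folr2, Cbr2, F13a1 and Fcna), against 23.1% of all, and the list median was 0.30. The 5 lowest lay 0.21 to 0.68 below the other 9 arrays. Timd4 encodes a receptor for phosphatidylserine on dying cells and read 4.34 on WT AngII 2 against 4.68 to 5.48 elsewhere, a level below the median probe set. Folr2, a folate receptor, read 7.28 against 7.32 to 7.78, and F13a1 9.59 against 9.66 to 10.10, so both were lowest by a small margin. Of 13 measured genes of monocytes and recruited macrophages, 8 were at their highest (16.8% of all) and 2 at their lowest (23.1%), with a median of 0.52. Fn1, which encodes fibronectin, was 3.47 above the other 9 arrays, Thbs1 2.0, Lgals3, which encodes galectin-3, 1.92 and Plac8 1.25. The 2 lowest were Itgb7, an integrin chain, at 0.33 below and Chil3, a chitinase-like protein of monocytes, at 0.31 below. Trem2 and Arg1 of the same list differed by -0.30 and -0.09, within the range of the others. The fibroblast and matrix gene Col1a1 was 3.89 above the other 9 arrays. Which cells gave the Fn1, Thbs1, Gas6 and Igfbp4 readings was not tested.

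Genes of other cells moved on the same array. Of 10 fibroblast and matrix genes 9 were at their highest on WT AngII 2, with a median of 1.38, and their mean deviation was 1.65 there and -0.61 to 0.42 on the other 9. Postn, a matricellular protein of activated fibroblasts, read 13.55 on WT AngII 2 and 8.72 to 11.21 elsewhere. Erythroid genes were lower, 3 of 3 at their lowest with a median of -0.78, and so were 2 of 3 adipocyte genes (-0.32). Of the erythroid genes, Hba-a1 averaged 4.53, below the median probe set, and read 4.44 on WT AngII 2 against 4.44 to 4.70 elsewhere. The 2 adipocyte genes at their lowest, Adipoq (mean 4.50) and Cidec (mean 5.89), also averaged below that median. The medians of neutrophil (-0.28), T and NK cell (-0.23), B cell (-0.05), dendritic cell (-0.07), mast cell (0.18), blood endothelial (0.08) and cardiomyocyte (-0.11) genes lay nearer 0. Whether any of these has a part in the macrophage readings was not tested.

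**Figure D2:**
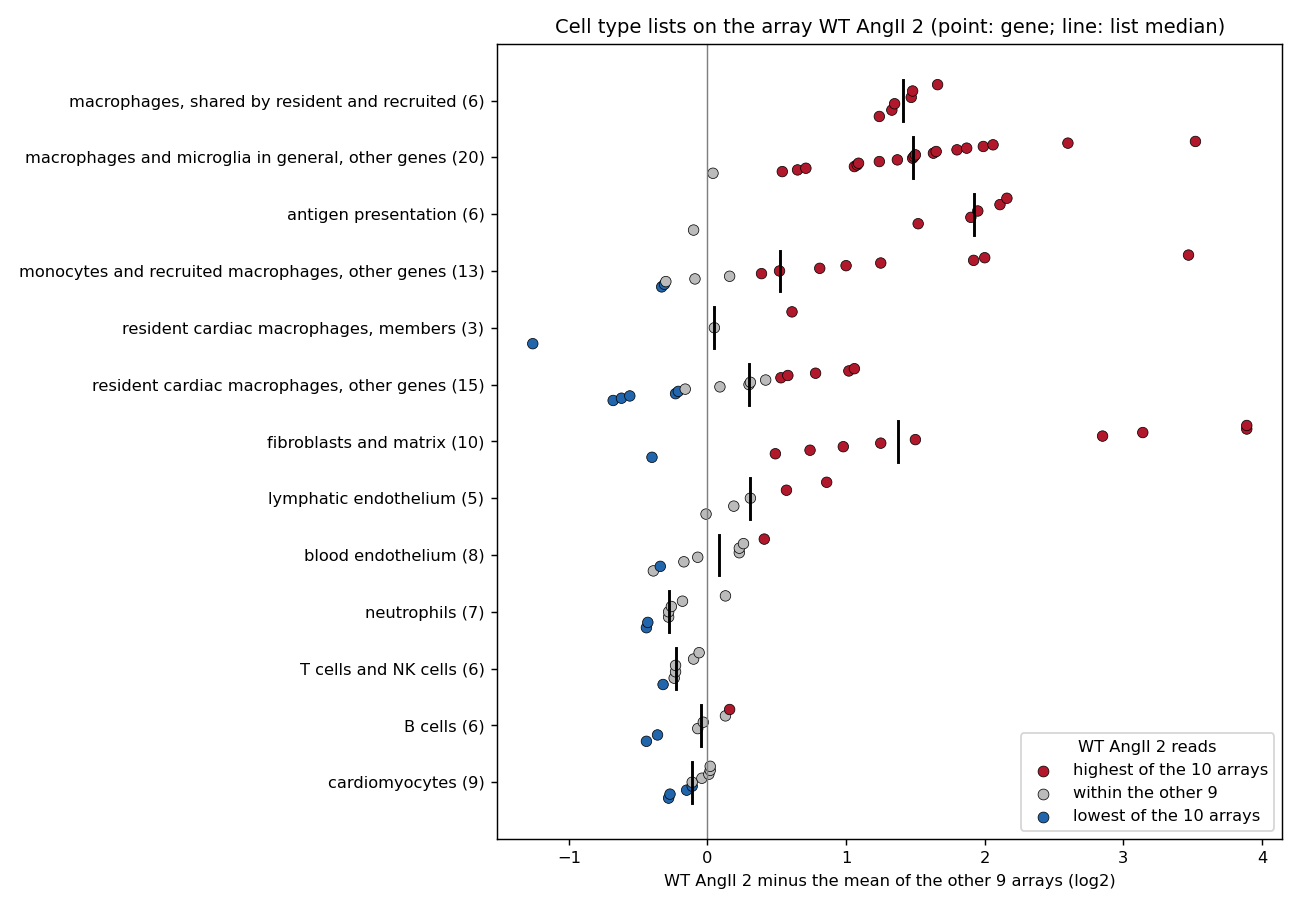
WT AngII 2 minus the mean of the other 9 arrays (x axis, log2) for each gene of 13 cell type lists (rows, number of genes measured in parentheses). Points are genes, coloured by whether WT AngII 2 is the highest, the lowest or neither of the 10 arrays, and lines are list medians. General macrophage genes (median 1.48), antigen presentation (1.93) and fibroblast genes (1.38) lie to the right, whereas resident genes spread to both sides.

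The first comparison was KO against WT hearts under AngII. With all 10 arrays 9 of the 10 markers had a difference below 0, with a median of -0.35 (0.00 over all 18193 genes). Of the 18 probe sets 0 passed an adjusted p under 0.05 in limma, against 0.0111% of all probe sets (5 of 45037). At an unadjusted p under 0.05, 2 of 18 were lower, against 3.28% of all. These were Csf1r (1419872_at) at -0.68 ± 0.29 (SE, limma adjusted p = 0.734) and Cd163 at -0.66 ± 0.26 (limma adjusted p = 0.734). The groups did not overlap, with KO lower, for 3 of 18 probe sets, all of these 2 genes, against 11.2% of all probe sets, and for 0 of 18 with KO higher, against 16%.

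Leaving out WT AngII 2 turned this comparison, in which 0 of 18 probe sets were then called, against 0.0133% of all, and at an unadjusted p under 0.05 2 of 18 were lower (2.26% of all) and 2 of 18 higher (3.26%). The median became 0.07 with 6 of 10 genes above 0, and C1qa, C1qb, Cd68, Lyz2 and Mrc1 changed sign. Of the shared genes, Csf1r (1419872_at) stayed below 0 at -0.34 ± 0.19 and Cd14 at -0.08 ± 0.20. Lyve1 then differed by -0.89 ± 0.31 (limma adjusted p = 0.871) and Cd163 by -0.72 ± 0.28 (limma adjusted p = 0.871). With all arrays the Lyve1 difference was -0.31 ± 0.48, and without WT AngII 4 it was 0.28. The other Lyve1 probe set (1453128_at) stood at 0.04 ± 0.40 with all arrays and at -0.46 ± 0.25 without WT AngII 2 (limma adjusted p = 0.941). The 2 probe sets that were higher were dim ones of Ccr2, 1421186_at at 0.39 ± 0.13 and 1421187_at at 0.37 ± 0.11 (limma adjusted p = 0.871 for both), against -0.10 ± 0.35 and 0.21 ± 0.15 with all arrays. The brightest Ccr2 probe set was at 0.17 ± 0.20. With the spike-in signal as a block Lyve1 was at -0.02 and Cd163 at -0.24, a fit that takes the split from the KO PBS arrays alone. With arrays weighted by how well they follow the fit, Lyve1 (-1.32, limma adjusted p = 0.0221) and Cd163 (-0.88, limma adjusted p = 0.0195) were called, 2 of 18 probe sets against 6.46% of all, and Lyve1 1453128_at (-0.59, limma adjusted p = 0.114) was not. That fit gave WT AngII 4, the array with the highest Lyve1, a weight of 7.2 and WT AngII 2 one of 0.225.

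Among the other genes of macrophages and microglia, 18 of 20 lay below 0 in this comparison (median -0.38, 0 called), and 14 of 20 above 0 without WT AngII 2 (median 0.17). The 15 other resident genes had a median of -0.13 both with and without that array. The lymphatic endothelium genes, examined beside Lyve1, had a median of -0.23 with all arrays and -0.11 without WT AngII 2, with 4 of 5 below 0 in both. Antigen presentation genes lay above 0 for 6 of 6 with all arrays (median 0.13) and for 6 of 6 without WT AngII 2 (0.85), with 0 called either way.

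Under PBS the KO hearts read lower than WT hearts for 9 of 10 markers, with a median of -0.33 (-0.00 over all genes), the exception being Ccr2 (1460067_at) at 0.14 ± 0.19. No probe set passed the adjusted threshold (0 of 18, against 0.0133% of all, 6 of 45037), and 0 of 18 had an unadjusted p under 0.05, against 6.29%. The groups did not overlap, with KO lower, for 8 of 18 probe sets from 6 genes (C1qb, Cd14, Lyz2, Cd68, Mrc1 and, by its dim probe set 1421187_at, Ccr2), against 10.8% of all probe sets, and with KO higher for 0 of 18, against 13.2%. The other 3 Ccr2 probe sets overlapped. Cd14 had the largest difference, -0.66 ± 0.40 (limma adjusted p = 0.819). Without WT AngII 2, which enters here only through the shared estimate of spread, its difference was -0.66 ± 0.18 (limma adjusted p = 0.297), the lowest adjusted p of any marker. At that setting 6 of 18 had an unadjusted p under 0.05 and were lower, against 5.52% of all, and 0 of 18 were called, against 0.0488%.

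Further macrophage genes showed the same side under PBS: 18 of 20 lay below 0, with a median of -0.34 and 0 called. Of the 15 other resident genes 13 lay below 0 (median -0.17). Of the 13 genes of monocytes and recruited macrophages 9 lay below 0 (median -0.13). One of them, Thbs1, which encodes the matrix glycoprotein thrombospondin 1, read 6.90, 6.31 and 5.90 in KO PBS hearts and 8.41 and 8.26 in WT PBS hearts. Its difference was -1.96 ± 0.58 (limma adjusted p = 0.631 with all arrays and 0.0266 without WT AngII 2, where it was called lower). It read 8.90 on WT AngII 2. KO PBS 4 and WT PBS 5 were at the ends of this comparison, with a mean deviation of the 10 markers of -0.37 on KO PBS 4 and 0.17 on WT PBS 5. Among arrays of the higher spike-in signal alone, KO PBS 2 and 3 against both WT PBS hearts, the median of the markers was -0.30.

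In KO hearts the AngII minus PBS difference was above 0 for 5 of the 6 shared genes and for Mrc1, and below 0 for Lyve1 and Cd163. In all, 7 of 10 markers lay above 0, with a median of 0.25 (-0.01 over all genes). The 3 below 0 were Cd163 at -0.38 ± 0.26, Lyve1 at -0.23 ± 0.48 and Cd14 at -0.09 ± 0.40. No probe set was called (0 of 18, against 0% of all), and 1 of 18 had an unadjusted p under 0.05 and was higher, against 2.17%: Ccr2 1421187_at at 0.37 ± 0.15 (limma adjusted p = 0.892). The groups did not overlap, with AngII higher, for 10 of 18 probe sets from 7 genes, against 13.7% of all, and with AngII lower for 1 of 18, Lyve1 (1429379_at), against 10.8%.

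Lyz2 had the largest difference in this comparison, 0.55 ± 0.33 with all arrays (limma adjusted p = 0.892). Without WT AngII 2 in the estimate of spread it was 0.55 ± 0.12 (limma adjusted p = 0.56), and 7 of 18 probe sets then had an unadjusted p under 0.05 and were higher, against 4.3% of all, with 0 of 18 called (0% of all). Both KO AngII arrays are of the lower spike-in signal, and with it as a block the comparison is that of KO AngII with KO PBS 4 alone, with a median of 0.26. Antigen presentation genes had a median of 0.72 with 6 of 6 above 0, and fibroblast genes 0.55 with 8 of 10 above 0. Their mean deviations were 0.20 and 0.42 in KO AngII hearts and -0.51 to -0.32 in KO PBS hearts for the fibroblast genes, and their part in the macrophage difference was not tested.

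In WT hearts the AngII difference depended on WT AngII 2. With all arrays 6 of 10 markers lay above 0, between -0.29 (Lyve1) and 0.56 (Csf1r), with a median of 0.23 (-0.00 over all genes). No probe set was called (0 of 18, against 0% of all), and 0 of 18 had an unadjusted p under 0.05, against 5.23%. The groups did not overlap for 2 of 18 with AngII higher (Csf1r 1423593_a_at and Ccr2 1421188_at), against 8.4%, and for 0 of 18 with AngII lower, against 11.3%. Csf1r differed by 0.56 ± 0.29 (limma adjusted p = 0.93).

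Without WT AngII 2 no marker was called either (0 of 18, against 0.00666% of all). The median was -0.01 with 5 of 10 above 0, and 3 of 20 general macrophage genes lay above 0 (median -0.28), against 17 of 20 (median 0.23) with all arrays. Of the genes of monocytes and recruited macrophages 6 of 13 lay above 0 (median -0.02), against 11 of 13 (0.14). Lyve1 then stood at 0.29 ± 0.31, against -0.29 ± 0.48 with all arrays. Cd14 was the 1 marker with an unadjusted p under 0.05, at -0.67 ± 0.20 (limma adjusted p = 0.385), against 6.22% of all probe sets that were lower at that threshold. With all arrays it was at -0.14 ± 0.40.

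The genes that recruit macrophages or keep them alive were read on the same arrays. Cx3cl1, the ligand of Cx3cr1, differed by 0.54 ± 0.18 between AngII and PBS in WT hearts (limma adjusted p = 0.93). Ccl7, a ligand of Ccr2, differed by -1.0 ± 0.35 (limma adjusted p = 0.93), read 5.07 to 5.86 on 9 arrays and was highest on WT PBS 3. Ccl2, named after its values were seen, read 9.06 on WT PBS 3 and 6.03 to 6.51 on the other 9. On WT PBS 3 the brightest Ccr2 probe set lay 0.02 from its mean, the dimmer ones at -0.11, 0.04 and -0.04, and the shared genes at -0.07. The list of monocytes and recruited macrophages lay at 0.15 there, the highest after WT AngII 2 (0.73). Chil3 (4.97) had its highest reading of all arrays on WT PBS 3, and Cd14 (8.56) its highest after WT AngII 2. Whether the chemokines have a part in these readings was not tested. The growth factor Csf1 read 9.11 and 8.85 in KO AngII hearts, 8.63, 8.84 and 8.57 in KO PBS, 8.74, 8.86 and 8.85 in WT AngII, and 9.41 and 8.49 in WT PBS.

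**Figure D3:**
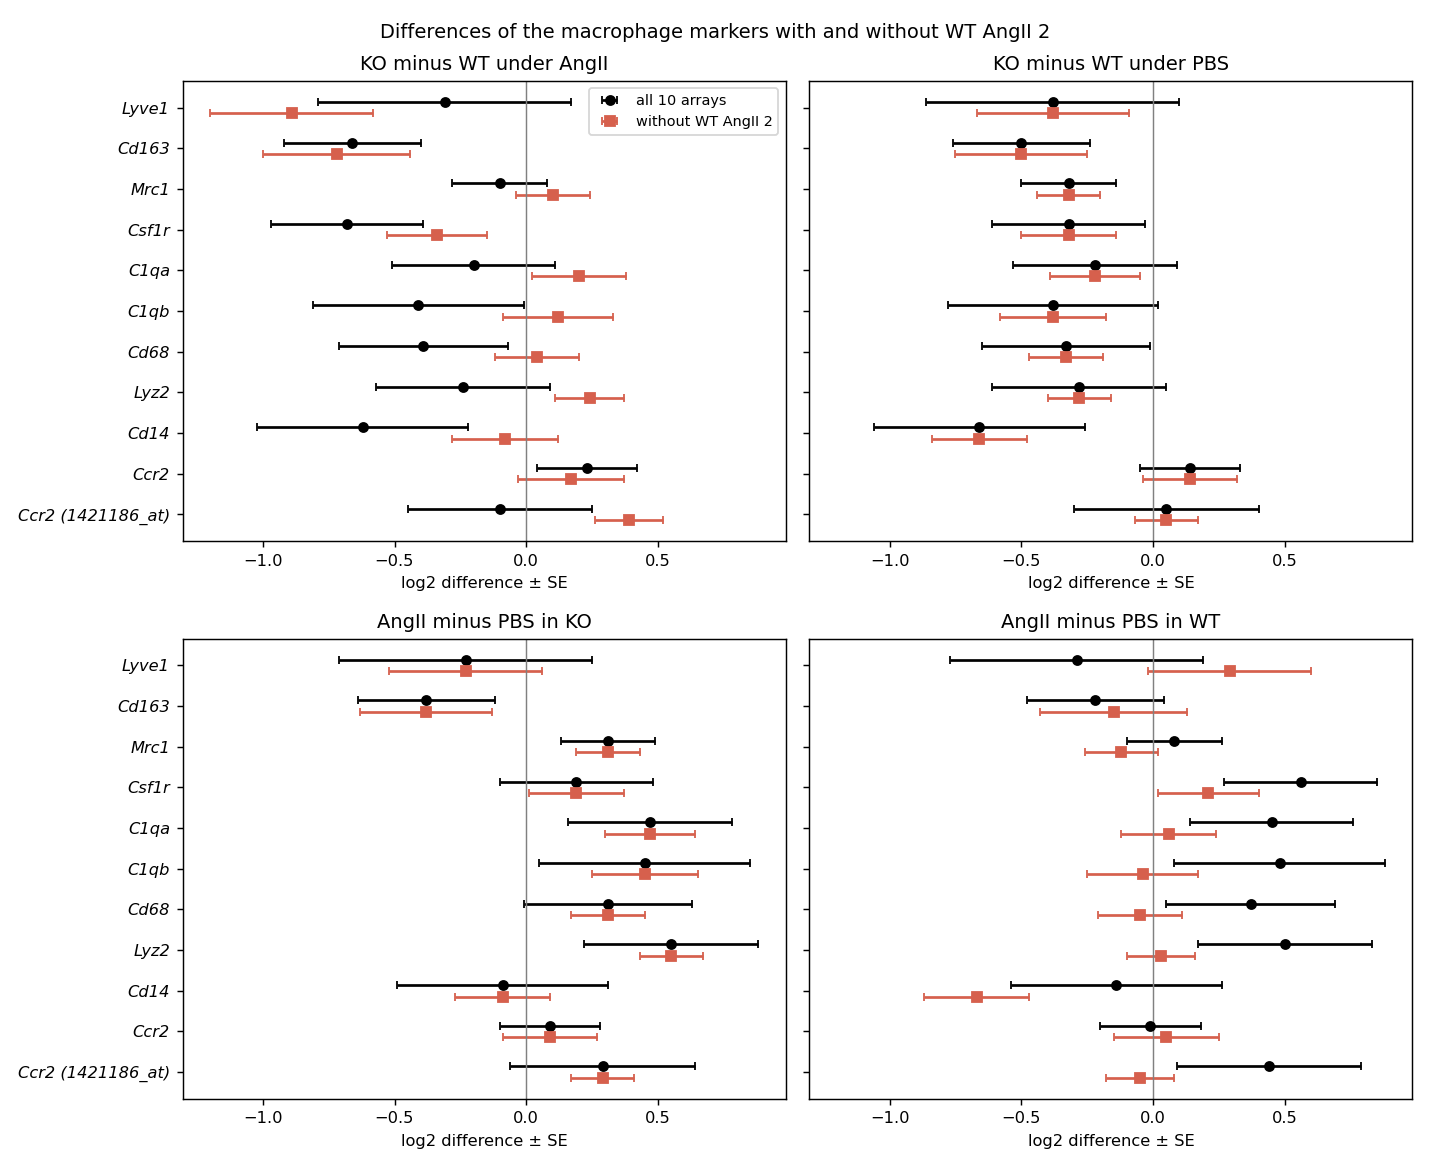
Log2 difference ± SE (x axis) of each macrophage marker (rows) in KO minus WT under AngII, KO minus WT under PBS, AngII minus PBS in KO and AngII minus PBS in WT, with all 10 arrays (black) and without WT AngII 2 (red). Under AngII most shared genes move from below 0 to near or above 0 when the array is left out, whereas Lyve1 stands at -0.89, against -0.31 with all arrays.

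The difference between the AngII effects of KO and WT hearts had a median of 0.03 over the 10 markers (-0.01 over all genes), between -0.37 and 0.23, and 0.39 without WT AngII 2. No probe set was called (0 of 18, against 0% of all), and 0 of 18 had an unadjusted p under 0.05, against 1.64%. Without WT AngII 2, 3 of 18 had one and were higher, against 2.37%: Lyz2 at 0.52 ± 0.18, Mrc1 at 0.42 ± 0.18 and Ccr2 1421187_at at 0.52 ± 0.15, with a limma adjusted p of 1 for each. The 5 comparisons share arrays, so their values are set side by side and not counted as separate evidence. Over the 141 genes of all lists, 0 were called in each comparison with all 10 arrays.

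**Figure D4:**
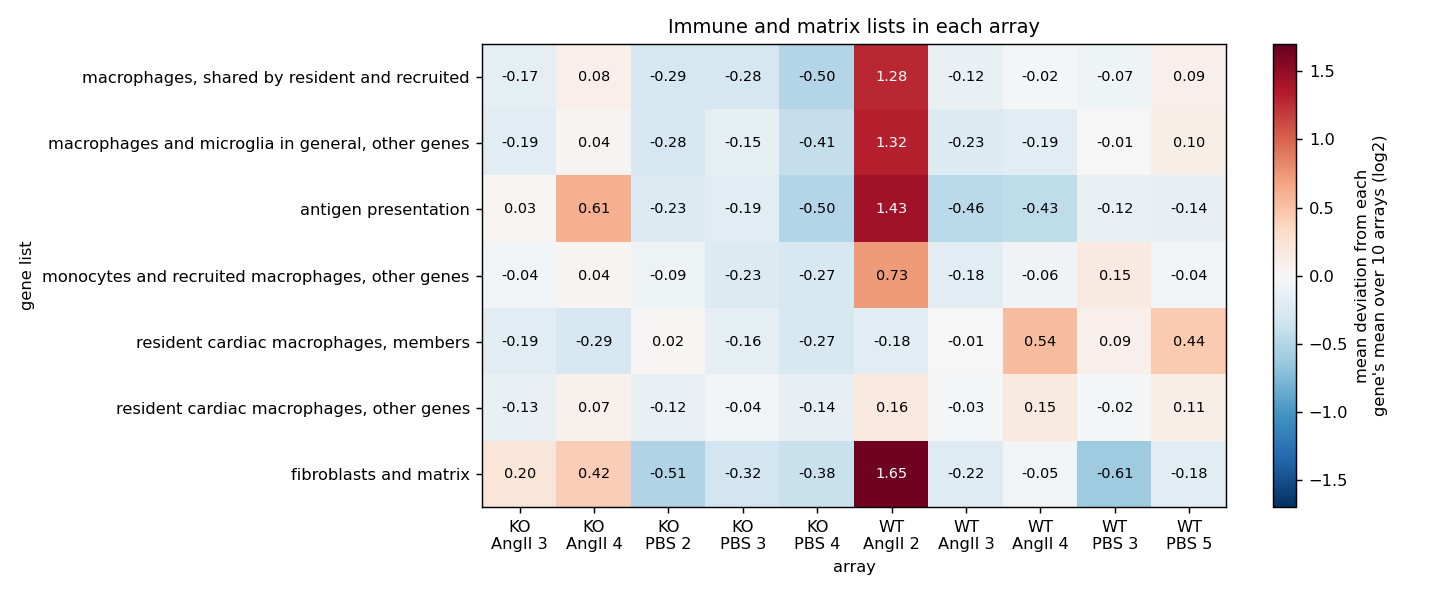
Mean deviation of each gene list (rows) from its genes' means over 10 arrays (log2, colour and number) in every array (columns). WT AngII 2 has 1.28 for the shared macrophage markers, 1.43 for antigen presentation and 1.65 for fibroblast genes but -0.18 for the resident markers, and KO AngII 4 has 0.61 for antigen presentation.

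The 8 genes most like the markers, by Pearson's r with the mean deviation of the 10 markers over 10 arrays, were Gpm6b (0.977), Prss23 (0.976), Inpp5d (0.973), Adcy7 (0.968), Prkcd (0.962), Masp1 (0.962), Actn4 (0.959) and Pmepa1 (0.956). Their values on WT AngII 2 lay 0.54 to 2.41 above the other 9 arrays. Over the 9 arrays without it the first 8 were Cxcl14 (0.930), Gpm6b (0.929), Prss23 (0.929), Phf11d (0.919), Adcy7 (0.915), Ppp1r18 (0.913), Pyurf (0.912) and Inpp5d (0.907). Gpm6b, Prss23, Inpp5d and Adcy7 stood in both lists. Inpp5d encodes the phosphatase SHIP1 of blood cells and lay 0.74 above the other 9 arrays on WT AngII 2. Prss23 (2.41), Adcy7 (1.95) and Masp1 (1.81) lay further above them. Which cells gave the readings of the genes in these lists was not tested. These are the top of 18193 genes ranked on few arrays and are given as a description.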

How the data were processed

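Hearts of 4 groups were read on 10 1-colour Affymetrix arrays, from biotinylated cRNA made of 6 µg of total RNA per the labels' protocols. The deposited log2 expression values were made by the authors with RMA, as the submitters' processing notes name it. RMA subtracts background, brings the arrays to 1 distribution and summarises the probes of each probe set, which compresses small differences of dim probe sets. No RMA version is given in the sources used here. Arrays carry no read depth, and their number limits the precision.

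Groups came from the titles. Without the 64 control probe sets, 45037 were tested. Of these, 34945 had 1 symbol in GEO's platform annotation, 932 several and 9160 none. For 34741 of those with 1 symbol, the symbol was taken from the RefSeq table of GRCm38.p6 by Entrez identifier, whether or not it differed. The tests were limma's (version 3.58.1, R 4.3.3), two-sided, on 4 group means with a trended eBayes step. There were 6 residual degrees of freedom, with a median of 11.7 after moderation. Benjamini-Hochberg adjustment covered all 45037 probe sets, and a call is an adjusted p under 0.05. The fit was tested on simulated data with independent noise of equal size on every array. Those data held no outlying array and no spike-in split, so they do not show how the fit deals with either.

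The markers and gene lists were chosen with earlier results of these data known. Named by rule were the markers, from each other list its called genes or else the 2 with the smallest unadjusted p in AngII minus PBS in WT, and the 8 genes most like the markers. Other list genes were named after their values were seen. Alternatives were other normalizations, filters, variance models, array weights, blocks for spike-in signal and for title number, probe set means, and each array left out. Correlations between arrays lay between 0.9734 and 0.9951, and none was a duplicate.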

Additional observations from a re-analysis of the deposited data

How the results depend on the processing

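The 45 differences and measures of single markers were recomputed at the alternative settings, which gave 919 values. Of these, 856 kept their direction and side of the threshold or, for the resident minus Ccr2 measure, which has no test, moved by less than the spread between replicates. In all, 61 changed sign, 25 of them at settings without WT AngII 2, and 2 were called where all arrays gave no call. The median of the markers ran over all settings between -0.01 and 0.40 for AngII minus PBS in WT, 0.16 and 0.38 in KO, -0.45 and -0.18 for KO minus WT under PBS, and -0.55 and 0.07 under AngII. The number of probe sets called was 0 at every setting but 1: array weights called 2 for KO minus WT under AngII. The cause of the changes was not tested. The Ccr2 probe set 1421186_at was lost to the filter on low values, and the interaction has no value from the compared groups alone.

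With array weights, AngII minus PBS in WT changed sign for Cd163 (0.00), Mrc1 (-0.08), Cd68 (-0.02), Lyve1 (0.72) and Ccr2 1421186_at (-0.14), and KO minus WT under AngII for Mrc1 (0.06), Lyz2 (0.16), C1qa (0.00) and Ccr2 1421186_at (0.48). Repeated quantile normalization turned Ccr2 to 0.04 in the first, Mrc1 to 0.04 in the second, and Ccr2 1421186_at to -0.00 for KO minus WT under PBS. The mean of all probe sets gave Ccr2 0.14 for AngII in WT and -0.00 for KO minus WT under PBS. The spike-in block turned Cd14 to 0.16 for AngII in KO, and C1qa to 0.13 and C1qb to 0.10 for KO minus WT under AngII. That block without WT AngII 2 gave, for AngII in WT, Mrc1 -0.12, Cd68 -0.05, C1qb -0.04, Lyve1 0.29, Ccr2 0.05 and Ccr2 1421186_at -0.05. It gave Cd14 0.16 for AngII in KO and, for KO minus WT under AngII, Lyz2 0.13, Cd68 0.01, Cd14 0.30, C1qa 0.52, C1qb 0.63 and Ccr2 1421186_at 0.35.

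Groups of 2 or 3 arrays are too small to exclude a pairing of arrays. The title numbers gave no sign of one: same-numbered arrays of different groups had correlated deviations between -0.36 and 0.10. As a replicate block they changed no call and turned Cd163 to 0.33 and Mrc1 to -0.09 for AngII in WT, Cd14 to 0.23 for AngII in KO, Cd163 to 0.05 and Ccr2 1421186_at to -0.29 for KO minus WT under PBS, and C1qa to 0.03 and Ccr2 1421186_at to 0.16 for KO minus WT under AngII.

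With each array left out in turn, AngII minus PBS in WT ran between -0.04 and 0.86 for C1qb, -0.14 and 0.09 for Ccr2, -0.05 and 0.77 for Ccr2 1421186_at, -0.67 and 0.17 for Cd14, -0.69 and 0.26 for Cd163, -0.05 and 0.59 for Cd68, -0.88 and 0.29 for Lyve1, and -0.12 and 0.19 for Mrc1. In KO it ran between -0.07 and 0.21 for Ccr2, -0.28 and 0.09 for Cd14, and -0.02 and 0.40 for Csf1r. KO minus WT under AngII ran between -0.49 and 0.20 for C1qa, -0.79 and 0.12 for C1qb, -0.43 and 0.39 for Ccr2 1421186_at, -0.60 and 0.04 for Cd68, -0.89 and 0.28 for Lyve1, -0.49 and 0.24 for Lyz2, and -0.21 and 0.10 for Mrc1. Under PBS it ran between -0.05 and 0.16 for Ccr2 1421186_at, and the other markers kept their sign. Without WT PBS 5, however, Cd163 stood at -0.03, Csf1r at -0.06, C1qa at -0.08 and Cd68 at -0.14 in that comparison. Cd14 (-0.85) and Mrc1 (-0.37) then lay at their lowest, and the median of the markers was -0.18.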
